A study of Mus musculus with 6 samples.

Results

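The Wnt ligands of cultured dermal adipocytes were examined as the genes of the table that carry 1 of 10 symbols, Wnt2, Wnt2b, Wnt4, Wnt5a, Wnt5b, Wnt6, Wnt9a, Wnt10a, Wnt10b and Wnt11. The table held 17924 genes and 9 of the 10 ligands, with Wnt6 not listed. Fibroblasts were taken from the dorsal dermis of newborn (P0) mice on a C57BL/6J background and kept for 14 days in adipocyte differentiation medium before RNA-seq. CTL cells came from mice with the genotype Nelfb fl/wt or Nelfb wt/wt, and Nelfb-/- cells (labelled Nelfb KO) from Nelfb fl/fl mice. Both groups carried Pdgfra-Cre, which is active in the Pdgfra+ fibroblast and preadipocyte lineage, so that only cells with a history of Pdgfra expression were targeted. The CTL definition covers heterozygous and wild-type animals, and the genotype behind each CTL library was not given in the sources used here. Nelfb is a subunit of the negative elongation factor, a complex that holds RNA polymerase II shortly after the start of a gene. Each group had 3 libraries, described by the study as biological triplicates, and pooling of animals was not given in the sources used here.

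Wnt proteins are secreted, lipid-modified signals. The acyltransferase Porcn attaches the lipid, the carrier Wls brings the ligand to the cell surface, and Frizzled receptors receive it. Together with the co-receptors Lrp5 and Lrp6 a Wnt-bound Frizzled stabilizes beta-catenin, which enters the nucleus and works with Tcf and Lef factors, whereas Ror, Ryk and Ptk7 are tied to beta-catenin-independent signals on cell polarity, movement and calcium. In fat tissue, Wnt10b is known as a signal of preadipocytes that holds them undifferentiated, and Wnt10a and Wnt6 have been placed beside it. Wnt5a, Wnt5b, Wnt4 and Wnt11 are better known for the beta-catenin-independent arm.

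Wnt10b and Wnt11 are shown by the 250 bases before their start sites (RefSeq, GRCm38.p6), since Wnt10b was the ligand that passed the test below and Wnt11 was the tested ligand whose log2 fold change was nearest to 0. The Wnt10b stretch lies at chr15:98778151-98778400 and the Wnt11 stretch at chr7:98834862-98835111, the first on the minus strand and the second on the plus strand. Both are written 5′ to 3′ along the gene, with matches to 4 searched motifs in capitals.
Wnt10b: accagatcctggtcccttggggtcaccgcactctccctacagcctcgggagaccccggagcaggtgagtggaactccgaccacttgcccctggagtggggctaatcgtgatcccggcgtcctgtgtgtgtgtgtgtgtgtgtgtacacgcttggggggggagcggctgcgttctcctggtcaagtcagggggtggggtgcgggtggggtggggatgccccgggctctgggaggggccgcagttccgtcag
Wnt11: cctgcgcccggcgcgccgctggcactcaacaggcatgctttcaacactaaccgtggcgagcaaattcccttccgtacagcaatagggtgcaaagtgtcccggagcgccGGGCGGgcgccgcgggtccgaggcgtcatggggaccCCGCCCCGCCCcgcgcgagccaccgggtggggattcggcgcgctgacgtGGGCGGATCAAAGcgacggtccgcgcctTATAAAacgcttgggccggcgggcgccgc
The motifs, searched on both strands, were GGGCGG (the Sp1 box), TATAAA (the TATA box), CTTTGAT (a Tcf/Lef site) and CACGTG (an E-box). The Wnt10b stretch held none of the 4 and was 66.8% GC. The printed Wnt11 stretch, the first of 2 windows of that gene and 70.8% GC, held GGGCGG 4 times (with 1 pair overlapping by 1 base), TATAAA once, beginning 29 bases before the start, and CTTTGAT once, beginning 51 bases before the start and reading ATCAAAG on the printed strand. The second Wnt11 window, at chr7:98838595-98838844 and 56.8% GC, held none of the 4. Of 32851 mouse promoters of this length, 32.7% held GGGCGG, 12.4% TATAAA, 3.21% CTTTGAT and 6.02% CACGTG, and the median GC content was 52.4%. Stretches were matched for 8 of the 10 ligands, in 11 windows, and those of Wnt5a and Wnt10a were not matched. GGGCGG occurred 8 times before Wnt4, 6 times before Wnt6, 5 times before Wnt9a, 3 times before Wnt2b and once before Wnt2, and the 3 windows of Wnt5b held it 1, 0 and 2 times. These matches describe the letters of the windows only. The study's own RT-qPCR assay for Wnt10b used the primers below, shown because they mark the part of the transcript that the assay reads.
Wnt10b forward: aggacacgtgggaatggg
Wnt10b reverse: agctgcctgacgttccat
On GRCm38 (GENCODE vM21, transcript Wnt10b-201) the forward primer matched coding exon 4, at chr15:98774246-98774263, and the reverse primer coding exon 5, at chr15:98772880-98772897. Both primers were found in 4 of the 7 annotated Wnt10b transcripts.

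Values are in CPM, reads of a gene per 1e+06 reads on the listed genes, and 1 library differs from another in depth, from 17.2 M to 29.4 M reads. A value of 3 reads, taken as the detection floor, was worth 0.102 to 0.175 CPM. Nelfb itself was at 17.3, 19.6 and 22.3 CPM in CTL against 5.50, 3.90 and 5.55 in Nelfb-/- cells, and its log2 fold change was -1.99 (SE 0.22, adjusted p = 0.0050, limma). The 12 adipocyte marker genes, all in the table, summed to 26370 to 45708 CPM in CTL against 20979 to 31313 in Nelfb-/- cells. Of the 12, 4 had a positive log2 fold change (54.6% of all genes), and their median was -0.65. Both groups thus carried transcripts of the labelled cell type. The study reported that Nelfb-/- cells lacked Oil Red O staining and had less Pparg and Plin1 protein. Fabp4, a fatty acid carrier and the highest of them, was at 17827, 15840 and 12706 CPM in CTL against 4571, 10808 and 8423 in Nelfb-/- cells, and it did not pass the test. Of these markers Retn fell and Lep, the gene for leptin, rose, beside 3.64% of all genes called lower and 7.58% called higher. An unmoderated test, in which each gene has its own spread, called neither. CTL replicate 3 and Nelfb-/- replicate 1 stood apart from their group mates, because CTL replicates 1 and 2 differed by more than 2-fold at 5.05% of genes and Nelfb-/- replicates 2 and 3 at 3.17%, whereas CTL replicate 3 differed from its mates at 19.5% and 20.9% and Nelfb-/- replicate 1 at 18.1% and 21.8%. CTL replicate 3 differed from Nelfb-/- replicates 2 and 3 at 20.6% and 20.8% of genes, about as many as from its own group, whereas Nelfb-/- replicate 1 differed from the CTL libraries at 24.3% to 30.5%. Results of the tested ligands are therefore also given without each of the pair, and without both, an alternative chosen after seeing the data. The pair was picked by its distance from group mates, so that leaving out both narrows the spread within groups by that choice. The p-values without both are therefore given as description and cannot be read like those over all libraries.

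The main comparison asked which Wnt ligand transcripts differ between CTL and Nelfb-/- cells. A gene was called when the adjusted p (limma, Benjamini-Hochberg over all genes tested) was at most 0.05 and the difference at least 2-fold, and it was tested when its mean reached 10 reads at a common depth of 22.3 M (0.448 CPM). Fold changes are on the scale of log2(reads + 1) at that depth, which understates the change of genes with few reads. Wnt10b rose, and it was 1 of the 8 tested ligands that passed, where 11.2% of the 16252 genes tested passed in either direction, 7.58% as higher and 3.64% as lower in Nelfb-/- cells. With so few ligands, this count is near the background share. Of the 8, 6 had a positive log2 fold change (54.6% of all genes), with a median of 1.20 over the ligands and 0.07 over all genes. Wnt10b was also the sole ligand of the 8 whose groups did not overlap, against 38.1% of all genes in either direction and 22.0% with Nelfb-/- cells above. Without CTL replicate 3 the count of called ligands stayed at 1 (15.2% of all genes called), without Nelfb-/- replicate 1 it was 3 (12.1% of all genes), and without both libraries it was 5, where the share of all genes called also rose, to 27.0%.

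**Figure D1:**
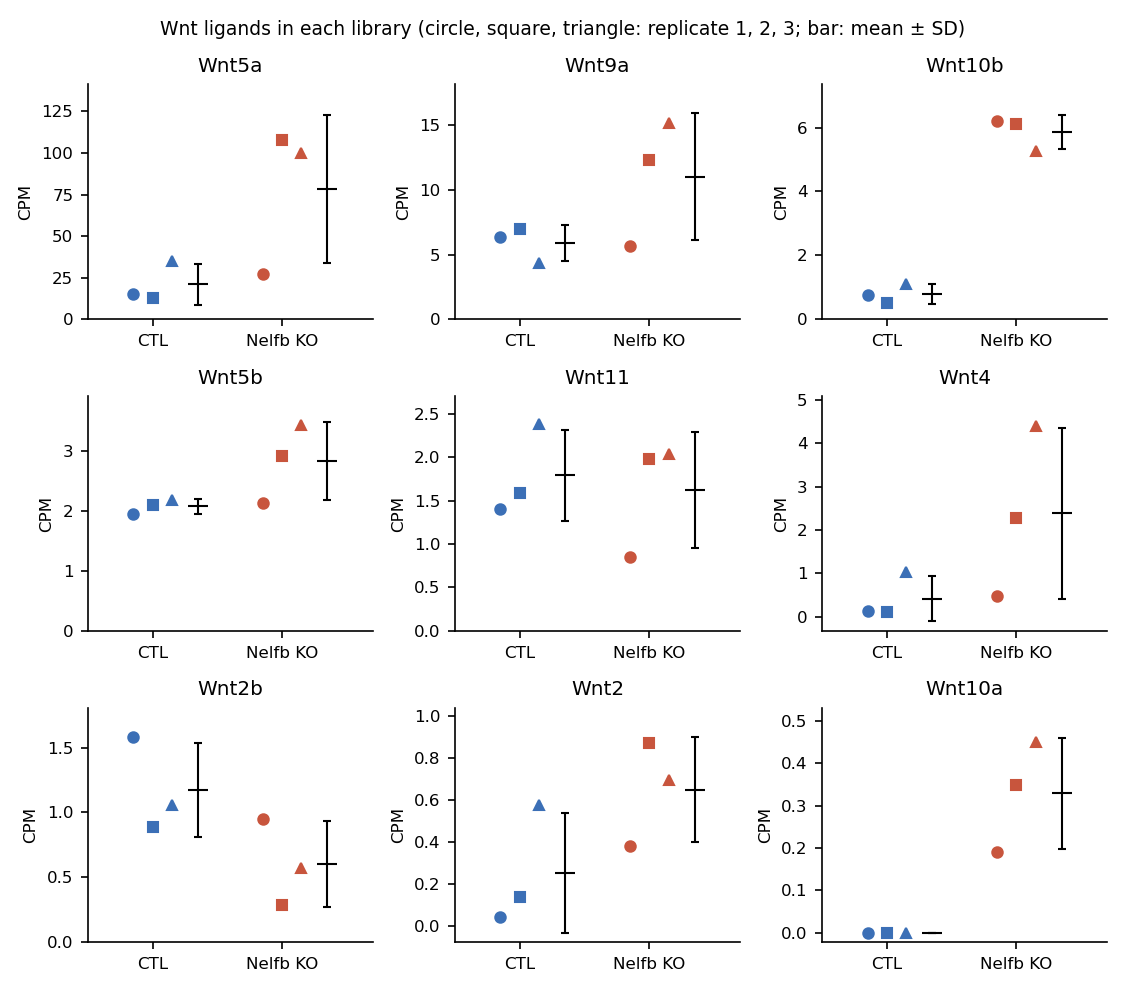
CPM (vertical axis, a separate scale in each panel) of the 9 Wnt ligands in the 3 CTL (blue) and 3 Nelfb-/- (red, labelled Nelfb KO) libraries, with the mean ± SD as a bar. The groups are apart for Wnt10b and Wnt10a, and the first Nelfb-/- replicate (circle) lies inside the CTL range for Wnt5a, Wnt9a, Wnt5b, Wnt4, Wnt2b and Wnt2.

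Among ligands known mainly for the beta-catenin arm, Wnt10b (ENSMUSG00000022996, GRCm38, chr15:98770712-98778150, minus strand) was at 0.767, 0.513 and 1.12 CPM in CTL against 6.21, 6.11 and 5.26 in Nelfb-/- cells. In reads these were 17, 11 and 33 against 131, 105 and 129. All 3 Nelfb-/- libraries were above all 3 CTL libraries, and the Nelfb-/- libraries were close together, including replicate 1, which stood apart elsewhere. The log2 fold change was 2.87 (SE 0.34, 95% interval 2.05 to 3.68, adjusted p = 0.0058, limma), a 7.29-fold difference. Wnt10b was called in all 16 alternatives, with log2 fold changes from 2.56 to 3.13 and adjusted p from 8e-06 to 0.041. Without CTL replicate 3 it was 3.13 (adjusted p = 0.0047), without Nelfb-/- replicate 1 it was 2.82 (adjusted p = 0.015), and without both 3.09 (adjusted p = 0.00039). The gene nearest to Wnt10b in the Wnt family, Wnt1, which starts 11.7 kb away on the opposite strand, was not in the table.

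The 5 genes whose centred log2 values over the 6 libraries lay nearest to those of Wnt10b were Cacng1 (root mean square difference 0.15), Gm19744 (0.16), Erbb3 (0.16), Kirrel3 (0.17) and Nfasc (0.18). Erbb3, a neuregulin receptor of Schwann cells and their precursors, was at 4.60, 3.31 and 5.44 CPM in CTL against 27.1, 31.5 and 29.3 in Nelfb-/- cells. Cacng1, a calcium channel subunit of skeletal muscle, was at 0.0902, 0.0467 and 0.170 CPM in CTL against 1.33, 0.990 and 0.857 in Nelfb-/- cells. Nfasc, an adhesion protein of nodes along axons, was at 0.857, 0.607 and 1.16 CPM in CTL against 7.40, 5.06 and 5.22 in Nelfb-/- cells.

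Markers of several other cell types moved with Wnt10b. Beside the counts of markers that rose stands the 7.58% of all genes called higher. The unmoderated test, which called 4.21% of all genes in either direction, kept fewer of these calls. It called 1 macrophage marker, no keratinocyte or endothelial marker, 2 Schwann cell markers, 5 skeletal muscle markers and 5 melanocyte markers. The Schwann cell markers reported here, Sox10, Cdh19, S100b and Ncam1, summed to 28.9 to 82.3 CPM in CTL against 115 to 176 in Nelfb-/- cells, and Sox10 and Cdh19 rose. Ncam1, the highest of these, was at 12.0, 14.5 and 61.3 CPM in CTL against 19.4, 70.3 and 69.6 in Nelfb-/- cells and did not pass. Sox10, a neural crest transcription factor, was at 6.45, 7.93 and 7.92 CPM in CTL against 45.4, 50.9 and 41.2 in Nelfb-/- cells. Skeletal muscle markers summed to 9.15 to 10.5 CPM in CTL against 50.9 to 78.4 in Nelfb-/- cells, with 8 of 8 in the table and all 6 that were tested rising, the highest being the muscle actin Acta1 at 3.65 to 5.51 CPM in CTL against 19.2 to 27.5 in Nelfb-/- cells, while the myogenic regulator Myod1 was listed at 0 in CTL replicates 1 and 3. Macrophage markers, 10 of 10 in the table, summed to 218 to 789 CPM in CTL against 2131 to 6665 in Nelfb-/- cells, and 9 of 10 rose, the highest being Lyz2, the gene for lysozyme, at 69.5 to 294 CPM in CTL against 911 to 3038 in Nelfb-/- cells. Melanocyte markers, 6 of 6 in the table, summed to 48.6 to 73.7 CPM in CTL against 51.9 to 168 in Nelfb-/- cells. Mitf, the melanocyte regulator with the highest mean of these, was at 62.8, 72.4 and 47.2 CPM in CTL against 96.3, 21.6 and 26.8 in Nelfb-/- cells, made up most of the CTL sum and did not pass (log2 fold change -0.65, adjusted p = 0.47, limma). The other 5 rose, and Tyr, the gene for tyrosinase, was at 0 in all 3 CTL libraries. Keratinocyte markers, 7 of 10 in the table without Krt15, Dsg3 and Lor, summed to 3.97 to 4.33 CPM in CTL against 10.5 to 24.7 in Nelfb-/- cells, and Krt14, Col17a1 and Sfn rose. Endothelial markers, 8 of 8 in the table, summed to 7.85 to 12.1 CPM in CTL against 23.5, 9.20 and 11.4 in Nelfb-/- cells, so that 2 of the Nelfb-/- sums lay inside the CTL range. Of the 6 tested Emcn rose, and Kdr, the highest, was at -0.37 and did not pass. The part of these cell types in the Wnt10b result was not tested, and in these bulk libraries more cells of a type and more RNA per cell cannot be told apart.

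Wnt10a (ENSMUSG00000026167, chr1:74791516-74804179), a close relative of Wnt10b, was at 0 reads in all 3 CTL libraries and at 4, 6 and 11 reads in Nelfb-/- cells, or 0.190, 0.349 and 0.449 CPM. These are few reads, but every Nelfb-/- library was above the floor of 3 reads. Against a floor of 3 reads per library in CTL (a mean of 0.126 CPM) Wnt10a was at least 2.62-fold higher in Nelfb-/- cells. Its mean was under 10 reads, so that it was not among the 8 tested ligands. Where genes with 10 reads in 1 library were kept, it was called (adjusted p = 0.019, limma), beside 11.0% of 17812 genes. Such a gene passes that filter only through the group in which it is high. Wnt6, which ends 6.19 kb upstream of the start of Wnt10a, was not in the table. The melanocyte marker Tyr, also at 0 in all 3 CTL libraries, was at 4.88, 2.33 and 3.55 CPM in Nelfb-/- cells, and the part of melanocytes or the other cell types above in the Wnt10a values was not tested.

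Wnt9a (ENSMUSG00000000126, chr11:59306928-59333552), known from the forming joints, was at 6.36, 7.00 and 4.35 CPM in CTL against 5.64, 12.3 and 15.1 in Nelfb-/- cells. The first Nelfb-/- replicate lay inside the CTL range and the other two above it. Its log2 fold change was 0.81 (SE 0.41, 95% interval -0.17 to 1.78, adjusted p = 0.22). Without Nelfb-/- replicate 1 it was 1.23 (adjusted p = 0.035, limma), without CTL replicate 3 it was 0.60 (adjusted p = 0.36), and without both 1.03 (adjusted p = 0.0026). It was lowest without Nelfb-/- replicate 3, at 0.52 (adjusted p = 0.53).

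Wnt2 (ENSMUSG00000010797, chr6:17988940-18030585), known from lung and heart development, was at 0.0451, 0.140 and 0.578 CPM in CTL against 0.379, 0.873 and 0.694 in Nelfb-/- cells. These are 1, 3 and 17 reads against 8, 15 and 17, and CTL replicate 3 lay inside the Nelfb-/- range. The log2 fold change was 1.60 (SE 0.78, 95% interval -0.28 to 3.47, adjusted p = 0.21), which did not pass. Without Nelfb-/- replicate 1 it was 1.92 (adjusted p = 0.18, limma) and without CTL replicate 1 it was 0.96 (adjusted p = 0.48), while without CTL replicate 3, or without both libraries that stood apart, Wnt2 was under the mean of 10 reads and was not tested. Wnt2b (ENSMUSG00000027840, chr3:104945272-104961921), which acts in the eye and lung, had the opposite sign, with 1.58, 0.887 and 1.05 CPM in CTL against 0.948, 0.291 and 0.571 in Nelfb-/- cells. Its groups overlapped only through Nelfb-/- replicate 1, and its log2 fold change was -1.01 (SE 0.50, 95% interval -2.21 to 0.19, adjusted p = 0.22). Without CTL replicate 3 Wnt2b was at -1.06 (adjusted p = 0.24, limma), without Nelfb-/- replicate 1 at -1.38 (adjusted p = 0.097), and without both at -1.43 (adjusted p = 0.047). It was nearest to 0 without Nelfb-/- replicate 2, at -0.60 (adjusted p = 0.49).

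Among ligands known mainly for beta-catenin-independent signals, Wnt5a (ENSMUSG00000021994, chr14:28504750-28527448), which guides polarity and outgrowth in limb and skin, had the highest CPM of the ligands in every library. It was at 15.4, 12.9 and 35.4 CPM in CTL against 27.0, 107 and 99.9 in Nelfb-/- cells. CTL replicate 3 was above Nelfb-/- replicate 1, and the remaining Nelfb-/- libraries were far above both. The log2 fold change was 1.79 (SE 0.62, 95% interval 0.29 to 3.28, adjusted p = 0.10), which did not pass. Without Nelfb-/- replicate 1 it was 2.43 (adjusted p = 0.024, limma), without CTL replicate 3 it was 2.23 (adjusted p = 0.059), and without both 2.87 (adjusted p = 2.8e-05). Without any of the other libraries it lay between 1.44 and 1.63 and did not pass. The antisense gene Gm2670 shares 358 exon bases with Wnt5a and was at 0.225, 0.373 and 0.272 CPM in CTL against 0.884, 2.93 and 2.59 in Nelfb-/- cells. Whether counting used the strand was not given in the sources used here, so that reads of the shared bases cannot be assigned.

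Wnt4 (ENSMUSG00000036856, chr4:137277489-137299726), known from kidney tubules and the female reproductive tract, was at 0.135, 0.0933 and 1.02 CPM in CTL against 0.474, 2.27 and 4.41 in Nelfb-/- cells. In reads these were 3, 2 and 30 against 10, 39 and 108, with the CTL replicates 1 and 2 at or below the floor. The log2 fold change was 2.55 (SE 1.06, 95% interval 0.0041 to 5.10, adjusted p = 0.15), close in size to that of Wnt10b but with a larger SE. Leaving out CTL replicate 3 gave 3.47 (adjusted p = 0.053, limma) and leaving out Nelfb-/- replicate 1 gave 3.43 (adjusted p = 0.065). Without both, Wnt4 was at 4.35 and called (adjusted p = 0.00057), whereas it was at 1.88 without Nelfb-/- replicate 3 (adjusted p = 0.40) and also below the value over all libraries without CTL replicate 2 (adjusted p = 0.37).

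The libraries that were high for Wnt5a and Wnt4 were also high for the sum of preadipocyte and dermal fibroblast markers. All 12 of these were in the table, and their sum was 3580, 3135 and 12281 CPM in CTL against 6780, 24567 and 26194 in Nelfb-/- cells, most of it from the collagen genes Col1a1 and Col3a1. Of the 11 tested, Dlk1 and Dpp4 rose, beside 7.58% of all genes called higher, and the unmoderated test called neither. Dlk1 and Dpp4 were lower in CTL replicate 3 (232 and 0.340 CPM) than in Nelfb-/- replicate 1 (661 and 2.18 CPM), unlike the sum. The part of these markers in the Wnt5a and Wnt4 values was not tested. The adipocyte marker sum was lowest in Nelfb-/- replicate 1, at 20979 CPM, and was 31313 and 26706 CPM in the other two.

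Wnt5b (ENSMUSG00000030170, chr6:119432531-119544347), the close relative of Wnt5a known from growth plate cartilage, was at 1.94, 2.10 and 2.18 CPM in CTL against 2.13, 2.91 and 3.43 in Nelfb-/- cells. The CTL libraries were tightly grouped and Nelfb-/- replicate 1 lay among them. Its log2 fold change was 0.41 (SE 0.27, 95% interval -0.24 to 1.07, adjusted p = 0.35), and it was 0.45 without CTL replicate 3 (adjusted p = 0.31, limma), 0.60 without Nelfb-/- replicate 1 (adjusted p = 0.15) and 0.63 without both (adjusted p = 0.063). Wnt11 (ENSMUSG00000015957, chr7:98835112-98855195), which directs cell movements in the embryo and kidney branching, was at 1.40, 1.59 and 2.38 CPM in CTL against 0.853, 1.98 and 2.04 in Nelfb-/- cells. The groups overlapped, with Nelfb-/- replicate 1 below all CTL libraries and CTL replicate 3 above every Nelfb-/- library. Its log2 fold change was -0.20 (SE 0.44, 95% interval -1.24 to 0.85, adjusted p = 0.79). The interval leaves room for a 2-fold fall and for a rise of 0.85 on the log2 scale, and the sign turned when CTL replicate 3 (0.02) or Nelfb-/- replicate 1 (0.20) was left out, or both (0.42, adjusted p = 0.22). The processed pseudogene Gm8398, on the opposite strand, shares 364 exon bases with Wnt11 and was not in the table.

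**Figure D2:**
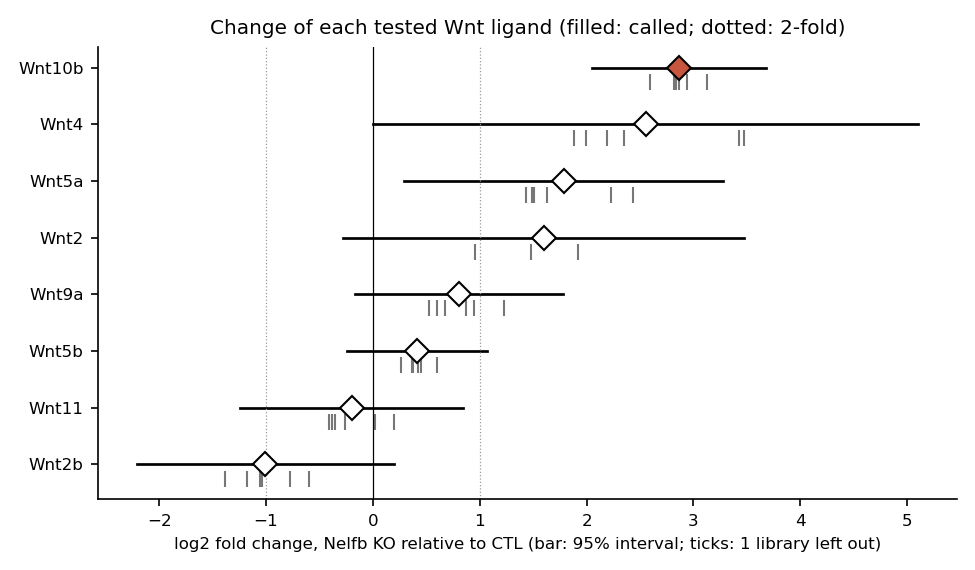
Log2 fold change (horizontal axis, Nelfb-/- relative to CTL) of the 8 tested ligands, with the 95% interval as a line, the estimate with each 1 library left out as ticks, and called genes filled. Wnt10b alone is filled, and its interval runs from 2.05 to 3.68. Wnt4, Wnt5a and Wnt2 lie above the upper 2-fold line with intervals that reach back to 0.0041, 0.29 and -0.28. Wnt2b lies just below the lower line, with an interval from -2.21 to 0.19.

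Of the 9 mouse Wnt genes outside the 10 ligands, 3 were in the table. Wnt16, known from bone and skin, was at 4.33, 4.29 and 1.84 CPM in CTL against 2.61, 2.62 and 2.53 in Nelfb-/- cells, and its log2 fold change was -0.32 (SE 0.38, adjusted p = 0.60, limma). Wnt8b had 1, 0 and 1 reads in CTL and 11, 6 and 8 reads in Nelfb-/- cells, and Wnt9b 5, 0 and 11 reads against 2, 3 and 9. Both were under the mean of 10 reads and were not tested.

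Levels of different ligands were compared per kb of exon, since longer transcripts give more reads. In CTL, Wnt5a (2.71 ± 1.57 CPM per kb, SD, n = 3) and Wnt9a (1.77 ± 0.42) stood first, with overlapping libraries. They were followed by Wnt5b (0.781 ± 0.046), apart from Wnt9a above it and from Wnt11 (0.432 ± 0.126) below it. Wnt2b (0.279 ± 0.086), Wnt10b (0.235 ± 0.090), Wnt2 (0.113 ± 0.126) and Wnt4 (0.0992 ± 0.1248) came next, each overlapping its neighbour, and Wnt10a was at 0. In Nelfb-/- cells Wnt5a (9.99 ± 5.68) and Wnt9a (3.31 ± 1.46) again stood first. Wnt10b (1.72 ± 0.15) took the third place, overlapping with Wnt9a and apart from Wnt5b (1.06 ± 0.25). The others were Wnt4 (0.568 ± 0.469), Wnt11 (0.393 ± 0.162), Wnt2 (0.288 ± 0.111), Wnt2b (0.144 ± 0.079) and Wnt10a (0.133 ± 0.053), and each overlapped the next.

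The 9 ligands together summed to 5.60, 5.38 and 8.30 CPM per kb in CTL and to 8.57, 21.9 and 22.3 CPM per kb in Nelfb-/- cells. The sum in Nelfb-/- replicate 1 was close to that in CTL replicate 3. Wnt10b made up 4.03%, 2.81% and 3.97% of the sum in CTL and 21.3%, 8.19% and 6.93% in Nelfb-/- cells, with the highest share in the library whose sum was lowest among the Nelfb-/- libraries. Wnt5a made up 35.1%, 30.7% and 54.4% in CTL and 40.3%, 62.6% and 57.2% in Nelfb-/- cells. Wnt9a made up 34.1%, 39.1% and 15.7% in CTL and 19.8%, 16.8% and 20.4% in Nelfb-/- cells. The share of Wnt11 was 6.04%, 7.13% and 6.93% in CTL and 2.41%, 2.18% and 2.21% in Nelfb-/- cells. Shares of a sum depend on one another and were not tested.

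**Figure D3:**
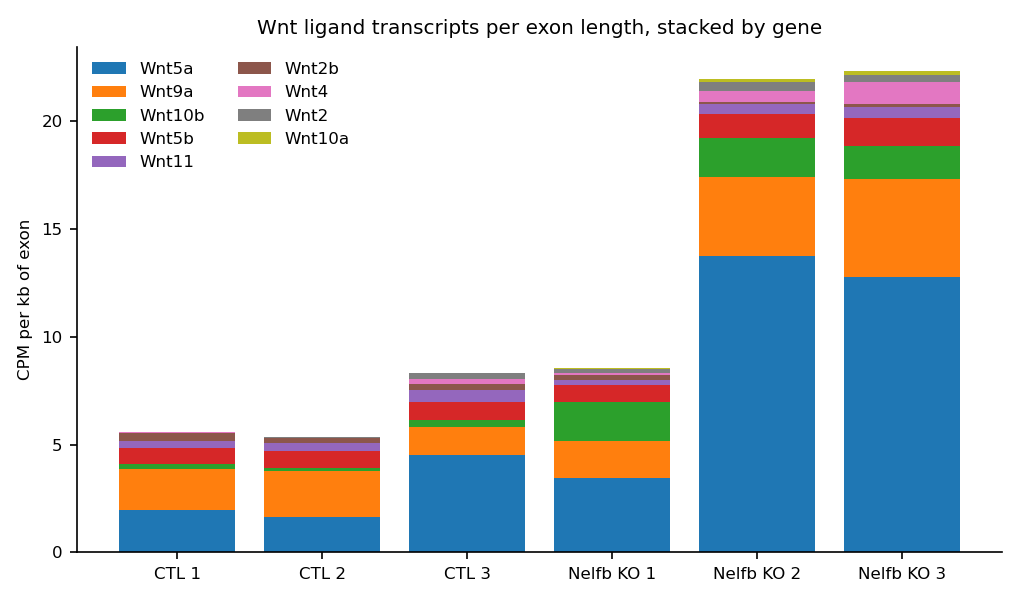
CPM per kb of exon (vertical axis) of the 9 ligands, stacked, in each library. The bars of CTL replicate 3 and Nelfb-/- replicate 1 are close in height, at 8.30 and 8.57, but the Wnt10b segment is taller in the latter, and Nelfb-/- replicates 2 and 3 reach 21.9 and 22.3, largely through Wnt5a.

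The other steps of the pathway were read from lists ordered by role, in which a gene can stand on more than 1 list. Genes for acylation, secretion and extracellular transport of Wnt proteins had 15 of 15 members tested and none called (limma), also with the unmoderated test. Gpc6, a cell surface glypican, was called without CTL replicate 3, and Gpc4, Gpc6 and the syndecan Sdc1 were called without both libraries that stood apart, as they were with library weights. All were higher, and in the latter fits 17.7% and 18.1% of all genes were called higher (27.0% and 27.8% in either direction). The median log2 fold change was 0.16. Porcn, the acyltransferase, was at 14.6, 14.7 and 28.5 CPM in CTL against 34.6, 8.85 and 12.6 in Nelfb-/- cells, with wide overlap. Wls, the Wnt carrier, was at 98.2, 98.4 and 124 CPM in CTL against 119, 134 and 152 in Nelfb-/- cells, and its log2 fold change was 0.34 (SE 0.16, adjusted p = 0.20). Tmed2, a cargo receptor of the secretory route with the highest mean of this list, was at 231, 250 and 284 CPM in CTL against 229, 258 and 266 in Nelfb-/- cells.

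Of 17 receptors and co-receptors, 16 were tested, 3 rose and none fell, beside 7.58% of all genes that were called higher, and the unmoderated test called 1 of the 3, where it called 4.21% of all genes in either direction. There were 12 positive log2 fold changes, beside 54.6% over all genes, and the median was 0.45. Without Nelfb-/- replicate 1 the called receptors numbered 4 and without both libraries that stood apart 6, namely Fzd2, Fzd8, Ror1, Ror2, Ptk7 and Musk, all higher, beside 7.74% and 17.7% of all genes called higher in those fits. With library weights 7 were called, the same 6 and Fzd9, and without CTL replicate 3 the called receptors were 2, Ptk7 and Musk. All were higher, beside 18.1% and 10.4% of all genes called higher. Fzd3, a Frizzled known from axon guidance, was at 9.65, 12.1 and 7.68 CPM in CTL against 18.7, 22.9 and 18.1 in Nelfb-/- cells (log2 fold change 1.03, SE 0.22, adjusted p = 0.026). It lies at the 2-fold limit and was not called under scaling by the median of ratios, quantile normalization, the unmoderated test or library weights, nor without CTL replicate 1, CTL replicate 3, Nelfb-/- replicate 2, Nelfb-/- replicate 3 or both libraries that stood apart. Ptk7, a planar polarity receptor without kinase activity, was at 44.8, 46.8 and 118 CPM in CTL against 138, 288 and 316 in Nelfb-/- cells (1.89, SE 0.48, adjusted p = 0.043). It was not called with the unmoderated test, nor without CTL replicate 1, CTL replicate 2, Nelfb-/- replicate 2 or Nelfb-/- replicate 3. Musk, the receptor kinase of the neuromuscular junction, which has a Frizzled-like domain, was at 0.451, 0.467 and 0.340 CPM in CTL against 4.22, 4.07 and 3.47 in Nelfb-/- cells (3.10, SE 0.29, adjusted p = 0.0040). The skeletal muscle markers given above moved with Musk, and their part in it was not tested. Musk was called in the unmoderated test and with each library left out, and it was the only receptor called without CTL replicate 1, without Nelfb-/- replicate 2 or without Nelfb-/- replicate 3. Ror1, a receptor of Wnt5a, was at 5.50, 4.81 and 33.9 CPM in CTL against 11.0, 47.3 and 51.0 in Nelfb-/- cells. Like Wnt5a it was higher in CTL replicate 3 than in Nelfb-/- replicate 1, and it did not pass (1.62, SE 0.91, adjusted p = 0.27). Lrp6, the co-receptor of the beta-catenin arm, was at 242, 196 and 167 CPM in CTL against 203, 139 and 163 in Nelfb-/- cells.

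R-spondins, which raise Wnt signalling by keeping Frizzled receptors at the surface, and their receptors had 6 of 9 members tested. None were called (limma), also with the unmoderated test. Rspo2 and Lgr5 were called as higher without CTL replicate 3, without both libraries that stood apart and with library weights (10.4%, 17.7% and 18.1% of all genes called higher), and Lgr5 alone with the replicate number as a block (9.26%). Lgr5, an R-spondin receptor and the gene of the list with the highest mean, was at 12.9, 15.8 and 159 CPM in CTL against 68.1, 143 and 242 in Nelfb-/- cells. CTL replicate 3 lay inside the Nelfb-/- range, and the log2 fold change of 2.06 (adjusted p = 0.21, limma) did not pass. The beta-catenin arm inside the cell had 17 of 17 members tested and none called, here as in the 16 alternatives, the unmoderated test among them. Its median log2 fold change was -0.04. Ctnnb1, the gene for beta-catenin, was at 294, 295 and 358 CPM in CTL against 549, 511 and 488 in Nelfb-/- cells. Its groups were apart and its adjusted p was 0.030 (limma), but its log2 fold change of 0.71 (SE 0.16) was below the 2-fold limit, and 15.8% of all genes reached an adjusted p of at most 0.05 at any fold. The planar polarity and calcium arm had 18 of 19 members tested and none called, with none called by the unmoderated test and a median of 0.17. Vangl1, a core polarity protein, was called without CTL replicate 3 and Nfatc4, a calcium-responsive transcription factor, without Nelfb-/- replicate 1, and without both 4 were called, namely Vangl1, Celsr1, Prickle1 and Nfatc4. With library weights 3 were called. All were higher, beside the 17.7% and 18.1% of all genes called higher in the latter fits, and Celsr1 was tested without both libraries but not in the fit of all 6. Rhoa, its gene with the highest mean, was at 381, 403 and 376 CPM in CTL against 315, 381 and 384 in Nelfb-/- cells.

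Genes that beta-catenin is known to switch on had 15 of 18 members tested, of which 2 rose and none fell. This share is near the 11.2% of all genes that were called. There were 11 positive log2 fold changes, beside 54.6% over all genes, and the median was 0.79. The unmoderated test called 1, Nkd2. Nkd2, an inhibitor of Dishevelled, was at 8.75, 13.3 and 10.4 CPM in CTL against 50.9, 57.7 and 63.6 in Nelfb-/- cells (log2 fold change 2.42, SE 0.20, adjusted p = 0.0033, limma). Apcdd1, a membrane inhibitor of Wnt signalling, was at 67.4, 64.6 and 61.6 CPM in CTL against 115, 218 and 207 in Nelfb-/- cells (1.42, SE 0.26, adjusted p = 0.017). Axin2, the most widely used target gene and also an inhibitor, was at 6.76, 6.91 and 2.21 CPM in CTL against 2.80, 2.21 and 3.26 in Nelfb-/- cells, with CTL replicate 3 at the Nelfb-/- level (-0.78, SE 0.48, adjusted p = 0.31). Lef1, a nuclear partner of beta-catenin, was at 1.06, 1.81 and 1.51 CPM in CTL against 2.58, 2.52 and 2.40 in Nelfb-/- cells (0.79, SE 0.29, adjusted p = 0.12). Without CTL replicate 3 the called targets numbered 8, of which Axin2 was lower and Nkd2, Lgr5, Apcdd1, Ccnd1, Ccn4, Cd44 and Tnfrsf19 were higher, and without Nelfb-/- replicate 1 they numbered 5. Without both of these libraries the same 8 were called in the same directions. The shares of all genes called in these fits were 15.2%, 12.1% and 27.0%. With the replicate number as a block 6 targets were called, and with library weights 7, all higher, beside 9.26% and 18.1% of all genes called higher. Without any 1 of the remaining 4 libraries, Nkd2 alone was called, beside 5.35% and 4.65% of all genes without CTL replicates 1 and 2, and 5.83% and 2.63% without Nelfb-/- replicates 2 and 3.

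**Figure D4:**
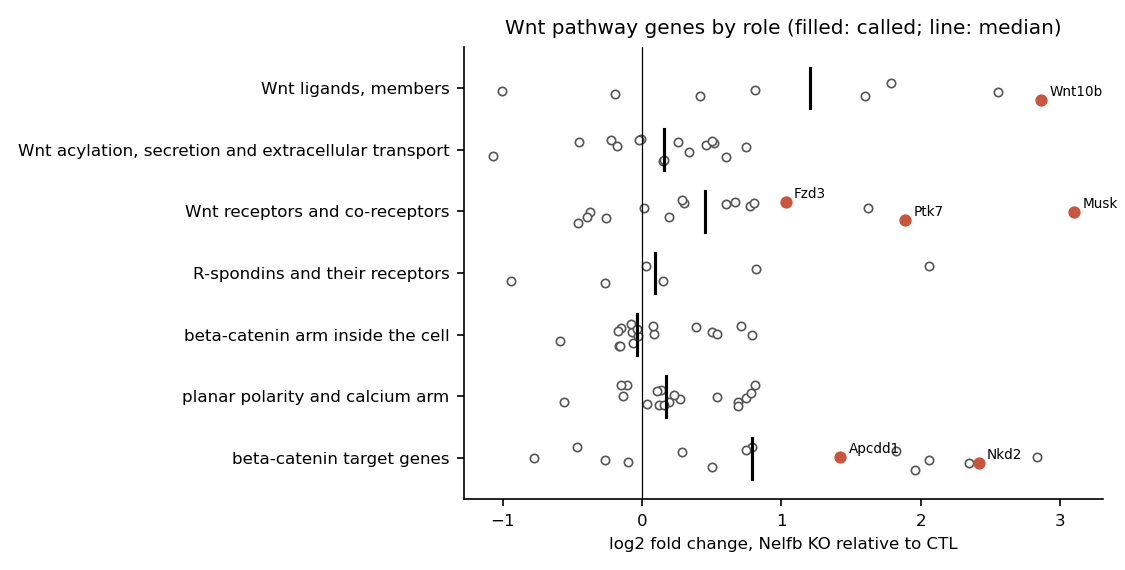
Log2 fold change (horizontal axis, Nelfb-/- relative to CTL) of each tested gene of the ligands and of 6 pathway lists, with called genes filled and named and the median of each list as a vertical line. Filled points are Wnt10b, Fzd3, Ptk7, Musk, Nkd2 and Apcdd1, all to the right of 0, and the medians run from -0.04 to 1.20.

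The ligands followed different patterns over the libraries. Wnt10b and Wnt10a were apart between the groups, as were the summed Schwann cell, skeletal muscle, macrophage and keratinocyte markers. Wnt5a, Wnt4 and Wnt2 were highest in Nelfb-/- replicates 2 and 3, and for these ligands CTL replicate 3 was above Nelfb-/- replicate 1, as it was for the sum of the preadipocyte and dermal fibroblast markers, though not for Pdgfra, Dlk1, Dpp4 or Dcn among them. Wnt9a and Wnt5b were highest in the same Nelfb-/- libraries, with narrower CTL ranges of 4.35 to 7.00 and 1.94 to 2.18 CPM.

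**Figure D5:**
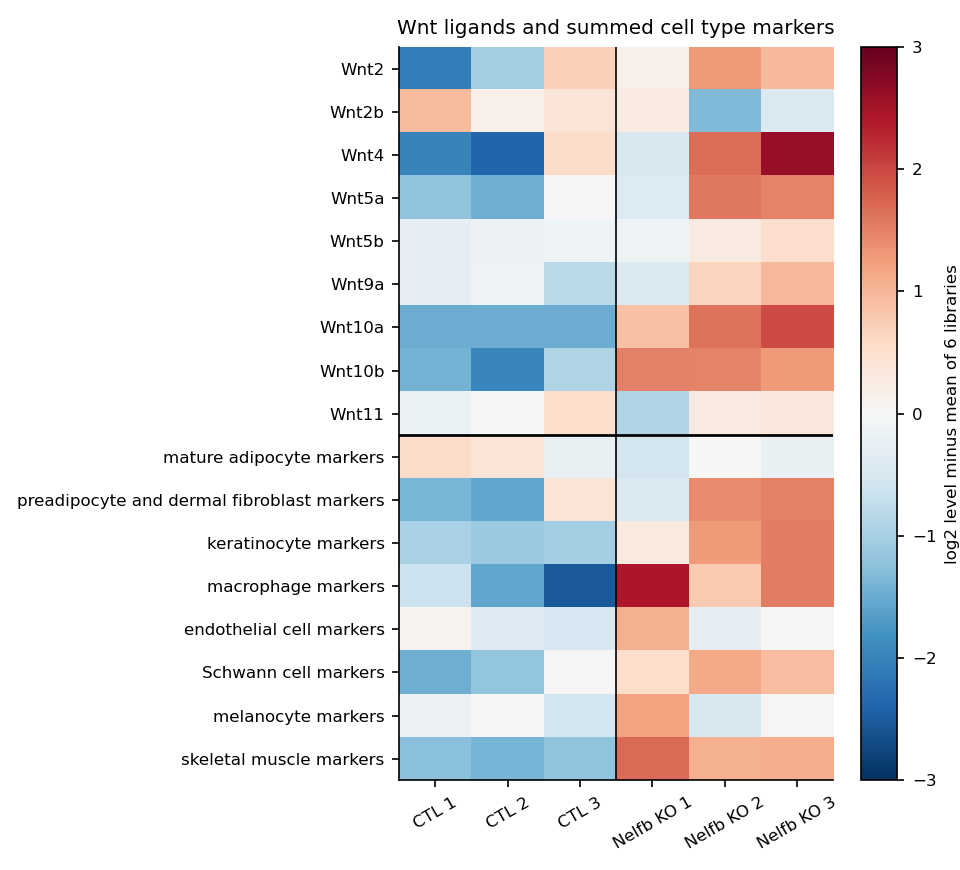
Log2 level of each ligand and of each summed marker list in each library, minus its mean over the 6 libraries (colour scale from -3 to 3, red above and blue below the mean). Wnt10b and Wnt10a are blue in all CTL and red in all Nelfb-/- libraries, as are the keratinocyte, macrophage and skeletal muscle markers, while Wnt5a and Wnt4 share the reds of Nelfb-/- replicates 2 and 3 with the summed fibroblast markers.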

How the data were processed

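RNA was sequenced from 3 CTL and 3 Nelfb-/- cultures. The values deposited by the authors are CPM with an offset of 0.0001, which was subtracted. Per the labels, reads were processed with STAR (2.7) and Partek (9.0.20.0202) on mm10, and the study left out genes under 10 reads, so that a gene absent from the table may have had few reads. Depth came from the CPM step of a single read. Since only 72.3% to 74.9% of values up to 20 reads were whole (tolerance 0.05 reads), no count test was run. Reads at a common depth of 22.3 M (CPM × 22.3) plus 1 were log2-transformed, and genes averaging 10 reads or more were tested with limma (3.58.1, R 4.3.3, abundance trend) over all genes. The scripts were tested on simulated data. The study used an analysis of variance. The unmoderated test here is of that kind, run on these log2 values, and is not the study's own fit. Its count of called genes, 684, differs from the count the study reported. In all 15 alternatives were planned and 1 was added. All 10 ligands, called list genes and, for called ligands, their 5 nearest genes are named, with Nelfb, other Wnt genes, and genes of highest mean. Porcn, Wls, Ror1, Lrp6, Axin2 and Lef1, and markers other than those of highest mean, were named for their roles after their values were seen. Members and lists were chosen with earlier results of these data known, and 2 planned Schwann cell markers are not reported here. Positions and exon lengths (all annotated exons joined) are from GENCODE vM21. P-values measure the spread between 3 libraries per group, and an exact permutation test could not go below p = 0.1.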

Additional observations from a re-analysis of the deposited data

How the results depend on the processing

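Wnt10b kept its direction and its call in all 16 alternatives. The other tested ligands kept their direction, except Wnt11, which turned from -0.20 to 0.45 with library weights, to 0.42 without both CTL replicate 3 and Nelfb-/- replicate 1, and lay between -0.41 and 0.20 with 1 library left out. The count of called ligands, 1, became 2 with genes of 10 reads in 1 library kept and 2 with no filter (Wnt10a added in each), 6 with library weights (Wnt2, Wnt2b, Wnt4, Wnt5a and Wnt9a added), 5 without both libraries that stood apart, and 1 to 3 with 1 library left out. The count of called genes, 1824, became 684 with the unmoderated test, 2175 with the replicate number as a block, 4513 with library weights, 4383 without both libraries, and 426 to 2479 with 1 library left out, namely 871 without CTL replicate 1, 758 without CTL replicate 2, 945 without Nelfb-/- replicate 2 and 426 without Nelfb-/- replicate 3. The library weights did not converge and rested mostly on Nelfb-/- replicate 3 (weight 38.8, against 0.132 for CTL replicate 3 and 0.134 for Nelfb-/- replicate 1). Leaving out both libraries leaves 2 per group. Quantile normalization lowered the share of called genes that were higher from 67.5% to 54.9% and moved the median log2 fold change of all genes from 0.07 to -0.07, with Wnt10b at 2.56. Wnt2 fell under the mean of 10 reads in 5 alternatives and has no value there. The causes of these changes were not tested.

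With the replicate number as a block (replicate block), 3 ligands were called, Wnt10b, Wnt4 (adjusted p = 0.042, limma) and Wnt5a (adjusted p = 0.037). All 3 were higher, beside 9.26% of all genes called higher in that fit. For samples of the same number, the correlations of their deviations from the group means were 0.52, -0.39 and 0.52. Not every sample correlated best with its own number. With 3 libraries per group, these values cannot show whether the numbers mark a pairing. Low counts limit Wnt10a, and Wnt2 and Wnt4 in CTL replicates 1 and 2, where they had at most 3 reads.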
